A study of Mus musculus with 10 samples.

Results

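The nuclear genes for subunits of the mitochondrial respiratory chain and of ATP synthase were followed on arrays of mouse back skin that had been stretched by an implanted expander. Members were chosen by symbol: names that begin with Nduf and a letter and number of a subunit, with Uqcr, with Cox and a number from 4 to 8, or with Atp5, together with Sdha, Sdhb, Sdhc and Sdhd. This gave 84 genes of the 19505 genes with a symbol on the array, each with 1 probe set. Of these, 37 belong to complex I, 4 to complex II, 8 to complex III, 15 to complex IV and 17 to complex V, and 3 muscle isoforms of complex IV (Cox6a2, Cox7a1 and Cox8b) were kept apart. The study compared 4 groups of C57BL/6J mice, all 9 weeks old when the experiment began. In the expanded group (4 arrays), a silicone expander under the back skin was gradually filled with PBS (phosphate-buffered saline). In the non-expanded group (4 arrays), the same expander was implanted and received no injection, so both arms carry the surgery and the implant. Each arm had 1 array at 0, 7, 14 and 21 days after full injection. The remaining 2 arrays came from skin without surgery, 1 in anagen, the growth stage of the hair cycle, and 1 in telogen, its resting stage. All RNA was total RNA of whole skin, so fewer cells of a type and less RNA per cell cannot be told apart, and the labels do not say whether an array holds 1 animal or a pool.

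The respiratory chain sits in the inner mitochondrial membrane. Complexes I and II take electrons from NADH and succinate, complex III passes them to cytochrome c, and complex IV hands them to oxygen, while complexes I, III and IV pump protons whose return through complex V makes ATP. Each large complex has a core that does the chemistry and a shell of smaller accessory subunits, and a few complex IV subunits come in a muscle form and a widely expressed form. In skin, hair follicles, fat, epidermis and the thin sheet of striated muscle below the dermis (the panniculus carnosus) all contain mitochondria.

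All values below are in log2 units as deposited, with array medians from 6.27 to 6.45, and the number of arrays limits the precision. The 23 background probe sets had a median of 5.46. Above it on all 10 arrays lay 79 of the 84 members. Cox4i2, Cox6b2 and Cox7b2, isoforms known for lung or testis, were above it on none, Ndufa7 and Ndufv3 on 9. The filter on low mean levels removed Cox6b2 and Cox7b2, and 82 members were tested among 13653 genes. On some array 5 members exceeded 16, where the scale may be stretched.

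Most subunit genes stood lower in expanded than in non-expanded skin, by a modest amount, and the 3 muscle isoforms stood lower by far more. The mean over all 82 tested members was 11.40, 11.66, 11.43 and 11.61 in expanded skin at days 0, 7, 14 and 21, against 11.96, 11.70, 12.13 and 11.89 in non-expanded skin. Without the 3 muscle isoforms the mean was 11.52, 11.81, 11.57 and 11.65 in expanded skin, against 12.04, 11.73, 12.15 and 11.88 in non-expanded skin. For these 79 genes expanded skin was the higher at day 7 and the lower on the other days, and the arms overlapped. The mean was 11.12 on the anagen array and 12.13 on the telogen array. In the expansion effect (limma, with the day as a block) 70 of the 82 members had a lower mean in expanded skin, or 85.4%, against 47.5% of all genes tested. The median difference over the members was -0.39, against 0.02 over all genes. No member passed an adjusted p of 0.05 in limma, and neither did any other gene (0% called, with 1202 genes at an unadjusted p under 0.05), with a smallest adjusted p of 0.303 among members. At an unadjusted p under 0.05, 13 members (15.9%) were lower, against 3.98% of all genes, and 1 member (1.22%) was higher, against 4.83%. Members share arrays and are not independent of each other, so these shares are descriptions. With the fast muscle level of each array as a covariate, the number of members at an unadjusted p under 0.05 was 1 (1.22%, against 4.37% of all genes) and the median was -0.48. That level itself differed between the arms (mean 13.70 in expanded and 15.46 in non-expanded skin), and the fit kept 2 residual degrees of freedom. The SE of Ndufa9, for example, was 0.39, against 0.20 without the covariate, with estimates of -0.67 and -0.63. The lower count therefore does not show the part of muscle, which was not tested. Without day 0 the number at this threshold was 5 members (6.1%, against 9.01% of all genes), and without day 14 it was 4 (4.88%, against 4.73%), so the share above the background depended on each of these days. Without day 7 it was 27 (32.9%, against 12.1%), and without day 21 it was 8 (9.76%, against 5.52%).

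**Figure D1:**
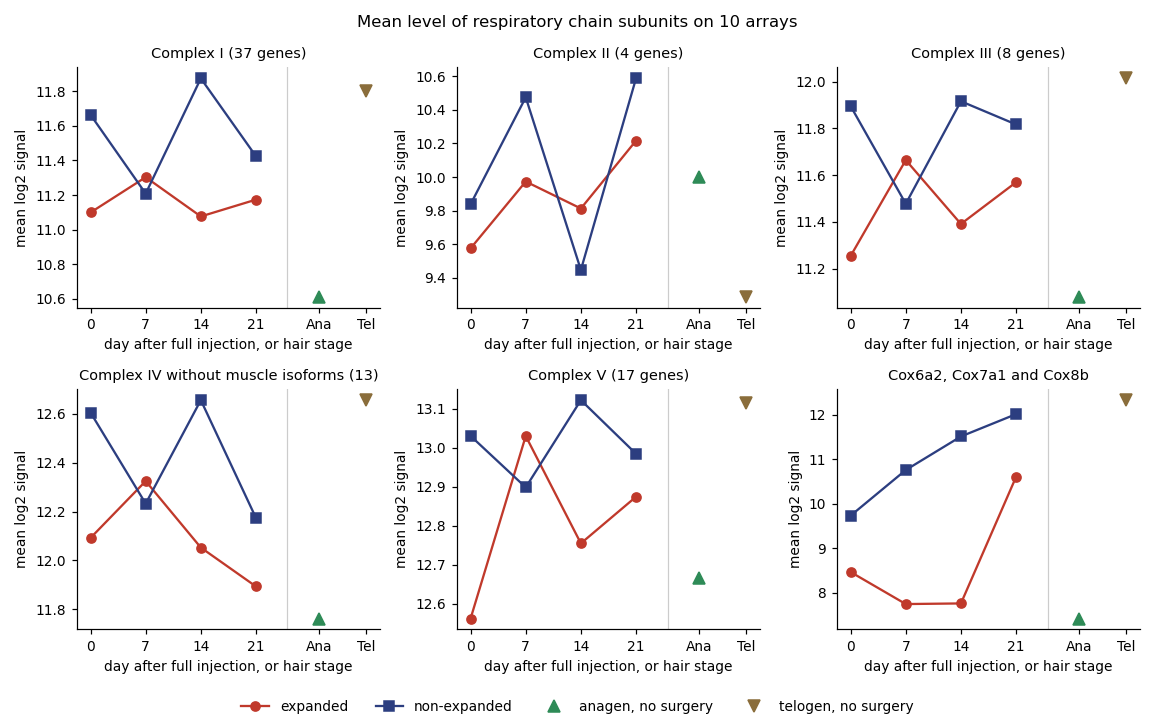
Mean log2 signal of the tested members of each complex on each of the 10 arrays: the expanded arm and the non-expanded arm by day (lines), then the anagen and telogen arrays (single triangles); each point is 1 array and the y axes differ. Complexes I, III, IV and V and the muscle isoforms were lower on the anagen than on the telogen array, whereas complex II was higher, at 10.00 against 9.29.

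The 3 muscle isoforms replace Cox6a1, Cox7a2 and Cox8a in the cytochrome c oxidase of heart and skeletal muscle. Cox6a2 (chromosome 7, 128205435 to 128206366, GRCm38.p6) was at 9.97, 8.34, 8.50 and 11.70 in expanded skin at days 0, 7, 14 and 21, against 11.39, 11.98, 11.58 and 13.01 in non-expanded skin. Each expanded array was the lower of its day, and the day 21 array of expanded skin reached into the range of the non-expanded arm. Its estimated difference was -2.36 ± 0.45 (SE, limma unadjusted p = 0.00142, adjusted p = 0.303). Cox7a1 (chromosome 7, 30184171 to 30186030) was at 8.32, 7.80, 7.37 and 10.27 in expanded skin, against 8.89, 10.59, 11.59 and 11.995 in non-expanded skin. Its gap was smallest at day 0 and widest at day 14, where it was -4.22. The estimate was -2.32 ± 0.56 (SE, limma adjusted p = 0.358). Cox8b (chromosome 7, 140898942 to 140900446) was at 7.10, 7.11, 7.42 and 9.83 in expanded skin, against 8.92, 9.70, 11.37 and 11.03 in non-expanded skin. The first 3 expanded arrays lay close together and the day 21 array stood well above them. The estimate was -2.39 ± 0.45 (SE, limma unadjusted p = 0.00137, adjusted p = 0.303). On the anagen array the 3 genes stood at 7.29, 8.10 and 6.87, against 11.80, 12.65 and 12.53 on the telogen array. The anagen values of Cox6a2 and Cox8b were below all 8 arrays of the expander arms.

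The widely expressed partners had estimates nearer 0. Cox6a1 was at 13.72, 14.66, 14.01 and 12.98 in expanded skin and 14.60, 13.55, 14.29 and 13.08 in non-expanded skin, with an estimate of -0.04 ± 0.35 (SE). Its sign turned with the day left out or with a covariate. Cox7a2 was at 11.31, 11.98, 11.24 and 11.16 in expanded skin and 12.52, 11.71, 12.46 and 11.40 in non-expanded skin, with an estimate of -0.60 ± 0.32 (SE, limma adjusted p = 0.645). Cox8a was at 12.48, 13.05, 12.90 and 12.49 in expanded skin and 12.82, 12.41, 12.57 and 11.95 in non-expanded skin, with an estimate of 0.29 ± 0.25 (SE). The arms overlapped for all 3 partners.

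**Figure D2:**
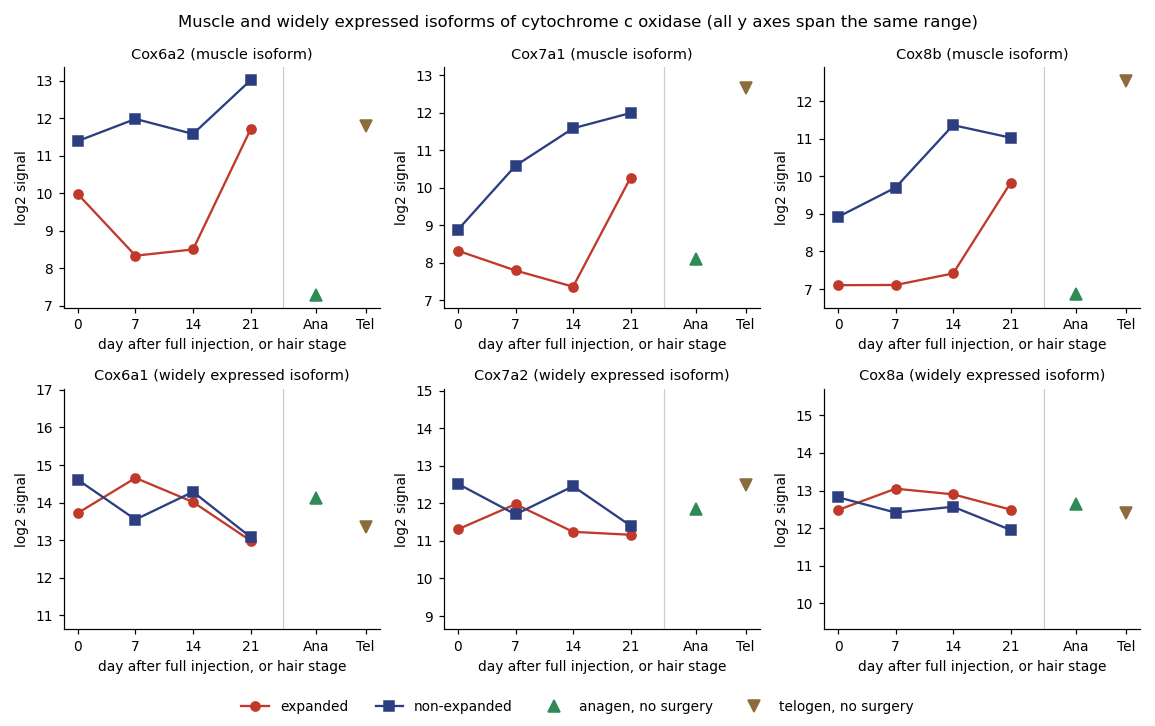
Log2 signal of the 3 muscle isoforms (top) and their widely expressed counterparts (bottom) on each array, by day for the expanded and the non-expanded arm and for the anagen and telogen arrays; each point is 1 array and each y axis spans the same range. All 3 muscle isoforms were lower in expanded skin on every day, while the lines of Cox6a1, Cox7a2 and Cox8a cross.

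Promoters are shown for these isoforms because the members of a pair are known to differ in where they are expressed and their values are set side by side above. The sequences are from RefSeq (GRCm38.p6) and run from 250 bases before to 50 bases after the start of the gene, 5′ to 3′ on its own strand. They are Cox8b at chr7:140900397-140900696 (minus strand), Cox7a1 at chr7:30183921-30184220 (plus strand), Cox7a2 at chr9:79759804-79760103 (minus strand), Cox8a at chr19:7217567-7217866 (minus strand) and Cox6a1 at chr5:115348909-115349208 (minus strand). No promoter of Cox6a2 was used here. Capitals mark matches on either strand to the E-box CAGCTG, bound by muscle factors such as MyoD, to the core GCGCANGCG of the site of NRF1, a regulator of many respiratory genes, or to the site AAGGTCA of the estrogen-related receptors.
Cox8b: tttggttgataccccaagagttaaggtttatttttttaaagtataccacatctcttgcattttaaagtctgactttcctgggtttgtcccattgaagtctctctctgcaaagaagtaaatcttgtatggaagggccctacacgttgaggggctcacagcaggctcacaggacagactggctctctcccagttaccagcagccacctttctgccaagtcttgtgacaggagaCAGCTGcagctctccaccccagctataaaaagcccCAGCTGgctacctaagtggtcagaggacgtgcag
Cox7a1: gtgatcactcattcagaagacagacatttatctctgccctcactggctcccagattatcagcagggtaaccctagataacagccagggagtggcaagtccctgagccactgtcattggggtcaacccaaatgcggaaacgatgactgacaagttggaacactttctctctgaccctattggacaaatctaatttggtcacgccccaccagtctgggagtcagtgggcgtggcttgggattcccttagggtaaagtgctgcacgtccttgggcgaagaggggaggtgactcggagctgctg
Cox7a2: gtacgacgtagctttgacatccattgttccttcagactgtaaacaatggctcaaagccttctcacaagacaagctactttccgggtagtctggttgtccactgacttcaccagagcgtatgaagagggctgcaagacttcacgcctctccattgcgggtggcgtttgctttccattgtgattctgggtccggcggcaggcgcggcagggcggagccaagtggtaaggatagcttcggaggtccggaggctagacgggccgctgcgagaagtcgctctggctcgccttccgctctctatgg
Cox8a: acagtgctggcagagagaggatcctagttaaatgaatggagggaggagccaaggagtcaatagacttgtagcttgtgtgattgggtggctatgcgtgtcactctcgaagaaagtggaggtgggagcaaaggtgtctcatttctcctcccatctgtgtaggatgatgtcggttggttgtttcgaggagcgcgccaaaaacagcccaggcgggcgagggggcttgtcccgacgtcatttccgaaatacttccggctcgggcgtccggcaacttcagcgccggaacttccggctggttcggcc
Cox6a1: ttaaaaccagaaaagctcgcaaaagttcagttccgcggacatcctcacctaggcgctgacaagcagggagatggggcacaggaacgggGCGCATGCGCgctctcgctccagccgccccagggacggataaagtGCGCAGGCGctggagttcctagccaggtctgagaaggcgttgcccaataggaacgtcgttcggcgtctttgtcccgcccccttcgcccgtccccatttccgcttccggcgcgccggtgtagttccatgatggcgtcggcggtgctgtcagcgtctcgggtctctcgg
The Cox8b promoter held 2 E-boxes, Cox7a1, Cox7a2 and Cox8a held none of the 3 motifs, and Cox6a1 held 3 matches to the NRF1 core, 2 of them overlapping on opposite strands. Among the 74 promoters listed for 69 members, the NRF1 core was in 21 (28.4%), against 6.25% of all 32851 promoters of the table. The receptor site was in 8 (10.8%), against 4.72%, and the E-box in 6 (8.11%), against 16.3%. Member promoters averaged 57.3% G and C, against 53.8% for all promoters, and the part of this in the motif shares was not tested. A match describes letters in this window and does not show binding.

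Genes of adult fast muscle fibres were low on several of the same arrays. The mean of 16 fast fibre genes was 14.72, 12.37, 12.66 and 15.03 in expanded skin, against 14.95, 15.33, 15.58 and 15.99 in non-expanded skin, 12.63 on the anagen array and 16.16 on the telogen array. At day 0 the arms were thus 0.23 apart in fast fibre genes, while the mean of the 3 isoforms was 8.47 in expanded and 9.73 in non-expanded skin. In the expansion effect 15 of the 16 were lower (median -1.91, 11 at an unadjusted p under 0.05, none adjusted). Slow fibre genes went the other way, with 8 of 9 higher (median 2.00), as did 6 of 7 genes of regenerating muscle (median 2.62). For slow fibre genes this did not hold at day 0, when 7 of 9 were lower. Their median difference by day was -0.50, 0.96, 1.00 and 5.42. With the fast fibre mean as a covariate the estimates were -0.94 for Cox6a2, -0.51 for Cox7a1 and -1.20 for Cox8b (limma unadjusted p = 0.0887, 0.404 and 0.103), so their call at the unadjusted threshold was lost. The fast fibre mean itself differed between the arms, and this fit kept 2 residual degrees of freedom. Cox7a1 is also used as a mark of brown fat. Ucp1, the defining gene of brown and beige fat, was above background on 0 of the 10 arrays, and 2 of 5 tested brown fat markers were lower (median 0.20). White fat markers were lower for 10 of 11 genes (median -0.32). By day their mean difference was 0.06, 0.32, -1.57 and -0.30, with 5, 4, 11 and 9 genes lower, so it was widest at day 14. The part of these cell types in the result was not tested further.

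Complex I, the NADH dehydrogenase and entry point of most electrons, is the largest of the complexes. Of its 37 genes, 32 were lower in expanded skin (median -0.46), 4 at an unadjusted p under 0.05. Its mean was 11.10, 11.30, 11.08 and 11.17 in expanded skin, against 11.66, 11.21, 11.88 and 11.42 in non-expanded skin, so the arms crossed at day 7. Ndufa9, a subunit at the joint of the matrix arm and the membrane arm (chromosome 6, 126821863 to 126849144), had a gap of similar size on each day. It was at 10.97, 11.23, 11.04 and 11.16 in expanded skin, against 11.68, 11.81, 11.70 and 11.74 in non-expanded skin. The arms did not overlap, and the estimate was -0.63 ± 0.20 (SE, limma unadjusted p = 0.0182, adjusted p = 0.472). Ndufv3, a small subunit of the NADH-oxidising module, was at 6.31, 5.96, 6.31 and 6.34 in expanded skin, against 6.94, 6.64, 7.74 and 6.74 in non-expanded skin. These arms did not overlap either, at levels not far above background, and the estimate was -0.79 ± 0.25 (SE, limma adjusted p = 0.472). Ndufa9 and Ndufv3 were the 2 members whose arms were apart in this way (2.44% of members), close to the 1.87% of all genes. Ndufa7 (-0.76 ± 0.28) and the iron-sulfur subunit Ndufs1 (-0.59 ± 0.24) also had an unadjusted p under 0.05. Ndufc1, the lowest estimate of complex I at -0.97 ± 0.45, was above non-expanded skin at day 7 by 0.65.

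Ndufs8, another iron-sulfur subunit of the core (chromosome 19, 3908863 to 3912774), went the opposite way. It was at 11.41, 11.86, 11.88 and 11.81 in expanded skin, against 10.76, 11.44, 10.61 and 11.39 in non-expanded skin. It was higher in expanded skin on each day, although the lowest expanded and the highest non-expanded array overlapped. The estimate was 0.69 ± 0.24 (SE, limma unadjusted p = 0.0272, adjusted p = 0.514). Ndufa4 is placed here by its symbol, although it is now counted with complex IV, and its estimate was -0.41 ± 0.41. Its relative Ndufa4l2, known as a hypoxia-induced gene, had an estimate of 0.13 ± 0.40. Both turned sign with a day left out. Ndufb4 and Ndufb4b are close copies whose probes may share signal, with estimates of -0.13 ± 0.20 and -0.24 ± 0.21.

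**Figure D3:**
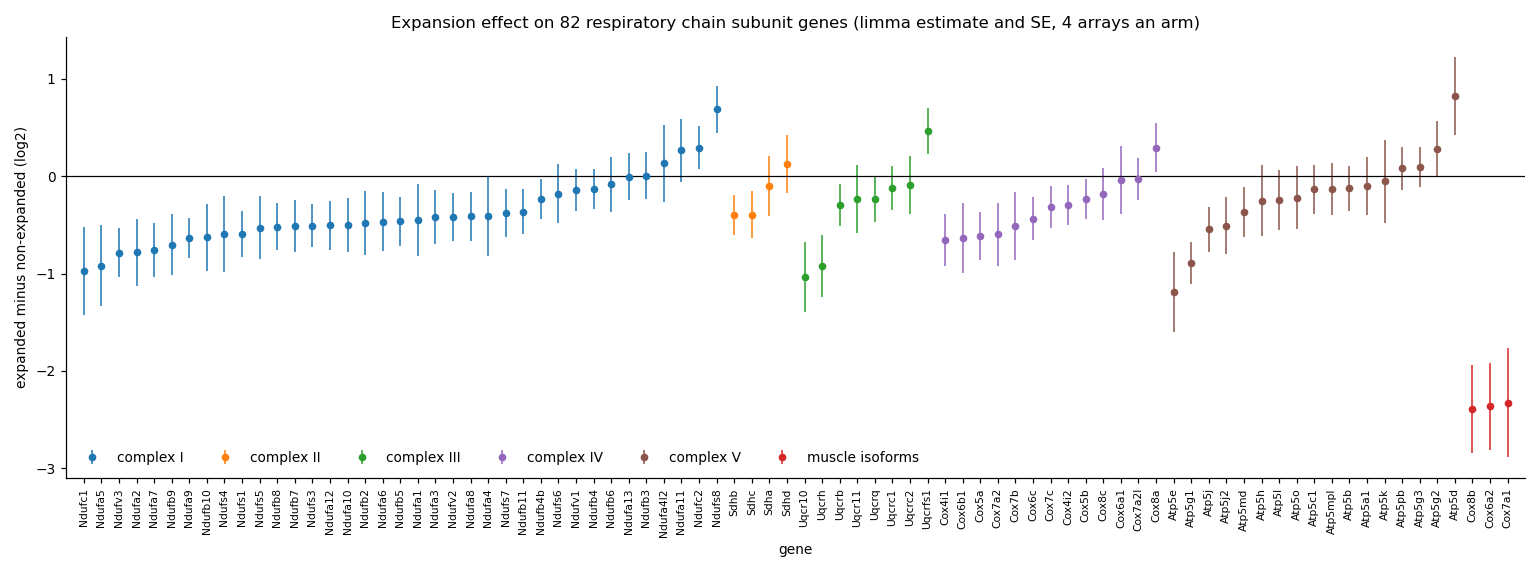
Expanded minus non-expanded difference (log2, limma estimate with its SE as a bar, 4 arrays an arm) for the 82 tested members, ordered within each complex. Most points lie between -1 and 0, the 3 muscle isoforms lie below -2, and 12 members lie above 0, with Atp5d, at 0.82, the highest.

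Complex II, succinate dehydrogenase, had 3 of 4 members lower (median -0.25), 0 of them at an unadjusted p under 0.05 in limma. Sdha, the flavoprotein that oxidises succinate, had an estimate of -0.10 ± 0.31, and Sdhb, the iron-sulfur subunit, -0.40 ± 0.20 (SE, limma adjusted p = 0.635). The membrane anchors Sdhc and Sdhd had estimates of -0.39 ± 0.24 and 0.12 ± 0.30. Sdhb was lower in expanded skin on each day. Sdha was at 8.60, 9.04, 9.23 and 9.86 in expanded skin, against 9.01, 9.56, 8.30 and 10.27 in non-expanded skin, with the day 14 pair turned round.

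Complex III, the cytochrome bc1 complex, had 7 of 8 members lower (median -0.23). The widest gaps were in the small subunits Uqcr10 and Uqcrh, while the median over all 5 small subunits was -0.29. Uqcr10 (chromosome 11, 4701968 to 4704344) was at 9.86, 10.08, 9.97 and 9.44 in expanded skin, against 11.69, 9.91, 11.47 and 10.39 in non-expanded skin. The expanded arrays were near each other, and the non-expanded arrays were high at days 0 and 14. The estimate was -1.03 ± 0.36 (SE, limma unadjusted p = 0.0255, adjusted p = 0.505). With the fast fibre covariate no other member had an unadjusted p under 0.05. Uqcrh, the hinge protein, was at 14.30, 14.64, 14.11 and 14.14 in expanded skin, against 15.37, 14.61, 15.86 and 15.03 in non-expanded skin. It repeated that picture, with an estimate of -0.92 ± 0.32 (SE). The core proteins Uqcrc1 and Uqcrc2 had estimates of -0.12 ± 0.22 and -0.09 ± 0.30. Uqcrfs1, the Rieske iron-sulfur protein that feeds electrons to cytochrome c1, was higher in expanded skin on each of the 4 days, by 0.47 ± 0.24 (SE, limma adjusted p = 0.631).

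Complex IV without its muscle isoforms had 12 of 13 members lower (median -0.31). Cox4i1, the main isoform of a subunit regulated by ATP (chromosome 8, 120668225 to 120674209), was at 13.72, 13.54, 13.39 and 12.68 in expanded skin, against 14.31, 13.53, 14.60 and 13.51 in non-expanded skin. The arms were level at day 7 and apart on the other days, and the estimate was -0.65 ± 0.27 (SE, limma unadjusted p = 0.0458, adjusted p = 0.556). Cox5a (-0.61 ± 0.24) was lower on each day. Cox6b1 (-0.63 ± 0.36) and Cox7b (-0.51 ± 0.35) had estimates of like size with more spread. Cox7a2l, a factor of supercomplex assembly, had an estimate of -0.03 ± 0.22, and the testis isoform Cox8c -0.19 ± 0.27.

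Complex V, ATP synthase, had 13 of 17 members lower, with a median of -0.13. That median was 0.042 without day 0 and -0.45 without day 7. Atp5g1, 1 of 3 genes for the same c subunit of the rotor ring (chromosome 11, 96072793 to 96075694), was at 12.69, 12.76, 13.07 and 13.89 in expanded skin, against 13.74, 13.39, 14.20 and 14.64 in non-expanded skin. It was lower on each day by 0.63 or more, while both arms were highest at day 21. The estimate was -0.89 ± 0.22 (SE, limma unadjusted p = 0.00527, adjusted p = 0.360). The other genes for this protein had estimates of 0.28 ± 0.28 (Atp5g2) and 0.10 ± 0.20 (Atp5g3). Atp5e, the epsilon subunit of the central stalk (chromosome 2, 174461075 to 174464101), was at 7.87, 8.48, 6.84 and 7.78 in expanded skin, against 9.73, 8.38, 9.03 and 8.58 in non-expanded skin. The gap was near 2 log2 units at days 0 and 14 and absent at day 7, and the estimate was -1.19 ± 0.41 (SE, limma adjusted p = 0.502). Its neighbour in the stalk, the delta subunit Atp5d, was at 11.59, 12.37, 12.18 and 12.07 in expanded skin, against 10.45, 12.90, 10.26 and 11.31 in non-expanded skin. Here non-expanded skin was low at days 0 and 14, and the estimate was 0.82 ± 0.40 (SE, limma adjusted p = 0.618). The catalytic beta subunit Atp5b had an estimate of -0.12 ± 0.23.

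The days did not contribute alike. The median difference over the 82 members was -0.57, 0.09, -0.64 and -0.22 at days 0, 7, 14 and 21, against 0.05, -0.06, 0.04 and 0.05 over all genes, with 1 array a side and no test. At day 0, 19 members were at least 2-fold lower in expanded skin (23.2%, against 6.18% of all genes), and at day 14 it was 30 (36.6%, against 8.85%). At days 7 and 21 there were 3 each (3.66%), against 9.43% and 6.13% of all genes, and on both days these were the 3 muscle isoforms. Lower on all 4 days were 18 members (22%, against 8.1% of all genes). They included Ndufa2, Ndufb8, Ndufs3, Cox5b, Cox6c and Atp5j beside those described above. Ndufc2, Ndufs8 and Uqcrfs1 were higher on all 4 days, and the share of all genes that were so was not determined.

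**Figure D4:**
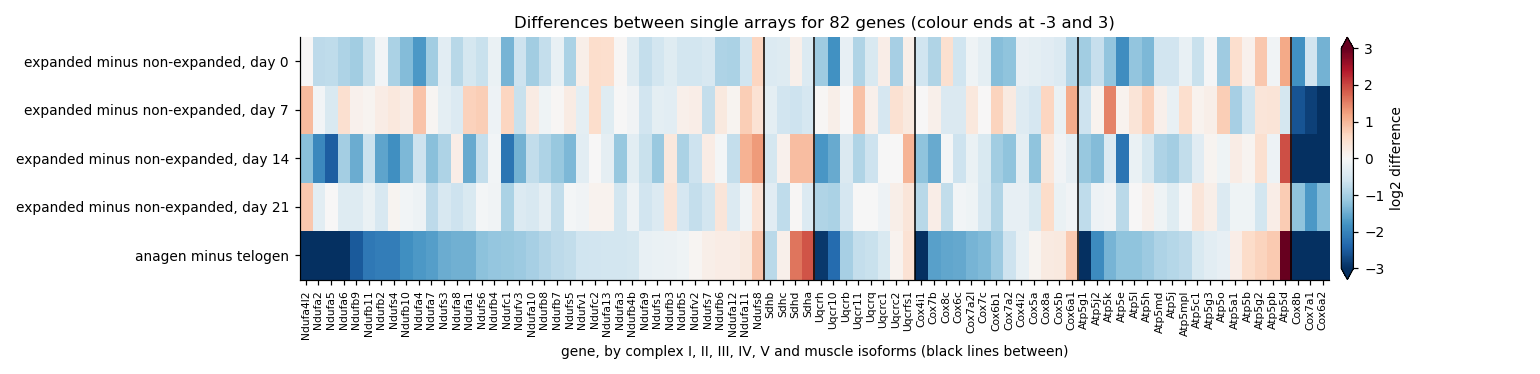
Log2 difference between single arrays for the 82 tested members (columns, by complex, divided by black lines): expanded minus non-expanded at days 0, 7, 14 and 21, and anagen minus telogen in the bottom row; blue is lower in expanded or anagen skin. Days 0 and 14 and the anagen row are mostly blue, except in complex II, where 1 of 4 genes was lower at day 14 and in anagen. The muscle isoforms at the right are blue in every row.

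Catalytic and core subunits are described apart from all others, a split made after the values were seen and given without a test. The 18 core subunits were the iron-sulfur and flavin subunits of complex I, Ndufs3 of the same complex and all of complex II. With them were counted the core and Rieske proteins of complex III and the head and central stalk of complex V. The core subunits averaged 11.08, 11.53, 11.27 and 11.72 in expanded skin, against 11.28, 11.79, 11.23 and 11.88 in non-expanded skin. In both arms they were higher at days 7 and 21 than at days 0 and 14. The other 61 subunits, without the muscle isoforms, are called accessory here for short. They also hold the c ring and outer stalk of complex V and all 13 tested genes of complex IV outside the muscle isoforms. The 13 subunits encoded in mitochondrial DNA, complex IV core included, were not among the genes on the array. These 61 subunits averaged 11.64, 11.90, 11.65 and 11.63 in expanded skin, against 12.27, 11.71, 12.43 and 11.88 in non-expanded skin. Here the non-expanded arm was highest at days 0 and 14. The median expansion difference was -0.13 for core subunits (14 of 18 lower) and -0.41 for accessory subunits (53 of 61 lower). Genes for cytosolic ribosomal proteins, a list added after the values were seen, were high on the same non-expanded arrays. Their mean over 57 genes was 14.84, 15.04, 14.85 and 14.41 in expanded skin, against 15.33, 14.43, 15.31 and 14.33 in non-expanded skin. With that mean as a covariate the median over all members was -0.33 and 21 members (25.6%) had an unadjusted p under 0.05, against 13.6% of all genes, none an adjusted one. What the accessory subunits and ribosomal protein genes share on these arrays was not tested.

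**Figure D5:**
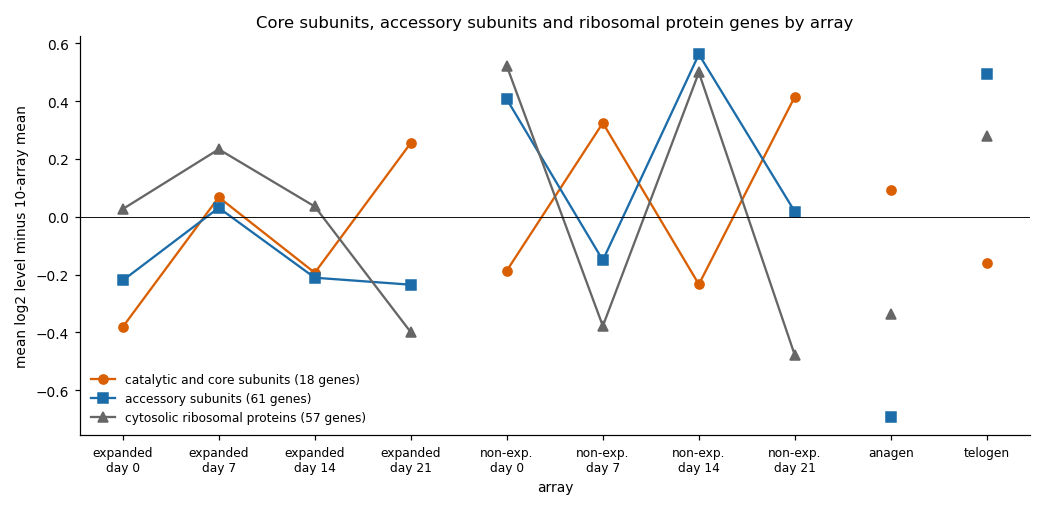
Mean log2 level of 18 core subunits, the 61 others (called accessory here) and 57 cytosolic ribosomal protein genes on each array, minus the mean of that group over the 10 arrays. Lines join the days of an arm. Accessory subunits and ribosomal protein genes are both high at non-expanded days 0 and 14 and in telogen, where core subunits are low.

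Slopes over time are given as the fitted change over 21 days. In neither arm did a member, or any other gene, pass an adjusted p of 0.05 in limma (339 genes in expanded and 495 in non-expanded skin at an unadjusted p under 0.05). Cox8b had a slope of 2.55 ± 0.83 (SE) in expanded skin and 2.40 ± 0.83 in non-expanded skin (limma unadjusted p = 0.0169 and 0.022, adjusted p near 1). Cox7a1 had 1.63 ± 1.03 and 3.10 ± 1.03, and Atp5g1 had 1.18 ± 0.49 and 1.06 ± 0.49, in expanded and in non-expanded skin. These were the members with an unadjusted p under 0.05 in an arm, 2 in each (2.44%, against 2.48% of all genes in expanded and 3.63% in non-expanded skin). The median slope over the members was 0.09 in expanded and 0.05 in non-expanded skin. In the test of the difference between slopes, 0 members had an adjusted or an unadjusted p under 0.05, against 1.22% of all genes at the unadjusted threshold. For Cox7a1 that difference was -1.47 with a 95% interval from -4.87 to 1.93.

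Implantation alone was read from non-expanded skin against the 2 arrays without surgery, in a fit of all 10 arrays. Of the 82 members 56 were higher in non-expanded skin, against 6928 of the 13653 genes (median 0.19, against 0.01 over all genes). No member passed an adjusted p of 0.05 in limma, nor did any other gene (2144 genes at an unadjusted p under 0.05). At that unadjusted threshold 5 members were higher (6.1%, against 9.42% of all genes), fewer than the background share. The gap between the anagen and telogen arrays is part of the spread in this fit, and its part in that share was not tested. Atp5o, the subunit that ties the outer stalk to the head, averaged 13.66 ± 0.33 in non-expanded skin (SD, n = 4), against 12.41 on the anagen and 12.67 on the telogen array. All 4 non-expanded arrays were above both, and the estimate was 1.12 ± 0.36 (SE, limma adjusted p = 0.181). Ndufv3 (1.12 ± 0.39), Ndufb7 (1.00 ± 0.39), Ndufb8 (0.72 ± 0.32) and Ndufa3 (0.70 ± 0.31) were the others. The non-expanded means of Ndufb7, Ndufb8 and Ndufa3 were 9.30, 8.77 and 12.62. These lay nearer to the telogen array (8.69, 8.49 and 12.20) than to the anagen array (7.91, 7.61 and 11.65). Macrophage markers were higher for 8 of 8 genes in this comparison (median 3.33), and their part in it was not tested.

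Expanded skin against the same 2 arrays gave a member median of -0.03. No member was among the genes past an adjusted p of 0.05 (0.476% of all genes, 65 in number), and 3 (3.66%) had an unadjusted p under 0.05 in limma, against 16.4% of all genes. Ndufc1 had an estimate of -1.31 ± 0.52 (SE, adjusted p = 0.246), Ndufs1 -0.89 ± 0.39 and Atp5o 0.90 ± 0.36. Both comparisons use the same 2 arrays, which differ greatly from each other, and that difference is part of the spread behind these p-values. Without the telogen array the implantation median was 0.60 and 16 members (19.5%) passed an adjusted p of 0.05, a share like the 19.4% of all genes. Without the anagen array the median was -0.15 and none passed. For expanded skin the median without the telogen array was 0.36, and 2 members (2.44%, against 13.6% of all genes) passed an adjusted p of 0.05. Without the anagen array it was -0.47, with 0 members past it and 25 (30.5%, against 22.7%) at the unadjusted threshold.

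Growing and resting skin were compared with 1 array a side and no test. The median member was lower in anagen than in telogen skin by a log2 difference of -0.83, against -0.01 over all genes. Lower in anagen were 62 of 82 members, against 6875 of the 13653 genes. At least 2-fold lower in anagen were 36 members (43.9%), against 20.4% of all genes. Outside the muscle isoforms the widest gap was in Ndufa4l2 (chromosome 10, 127509274 to 127517154), at 8.21 in anagen and 13.57 in telogen skin. It was at 13.89, 13.69, 12.75 and 12.58 in expanded skin and 13.87, 12.73, 14.01 and 11.76 in non-expanded skin, so the anagen array stood below all 9 others. Cox4i1 was at 11.00 in anagen and 14.66 in telogen skin, Ndufa2 at 8.08 and 11.72, Ndufa5 at 10.23 and 13.87, and Atp5g1 at 11.24 and 14.53. Among those 4 genes every array of the expander arms lay above the anagen value. Complex I was lower for 31 of 37 genes (median -0.99), complex III for 6 of 8, complex IV without muscle isoforms for 9 of 13 and complex V for 12 of 17.

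Complex II genes were higher in anagen for 3 of 4. Sdha was at 10.14 in anagen and 8.27 in telogen skin, Sdhd at 9.46 and 7.86, and Sdhc at 8.21 and 8.05, while Sdhb was lower, at 12.18 and 12.98. Core subunits, which include complex II, were lower in anagen for 7 of 18 genes (median 0.14), and those of complex I for 3 of 6 (median -0.08). Accessory subunits were lower for 52 of 61 (median -1.08). Atp5d had the largest difference upwards, at 13.61 in anagen and 9.90 in telogen skin. Ribosomal protein genes averaged 14.47 in anagen and 15.09 in telogen skin, and genes of the hair shaft and its inner sheath 16.26 and 6.40. Among the expander arrays the hair genes were highest on expanded day 7, at 11.86, against 4.63 in non-expanded skin of that day. At day 14 they were at 7.84 in non-expanded skin, above the telogen array, and at 5.53 in expanded skin, with 11 of 12 genes lower there. The part of follicle growth in the member values was not tested.

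Genes around the respiratory chain gave a mixed picture in the expansion effect, and none passed an adjusted p of 0.05 in limma. Electron carriers and subunits outside the naming rule were lower for 7 of 9 genes (median -0.29), led by Cyc1, cytochrome c1 of complex III, at -0.82 ± 0.22 (SE, adjusted p = 0.408). The citric acid cycle was lower for 13 of 17 genes (median -0.36), 3 at an unadjusted p under 0.05: Fh1, the fumarase (-0.86 ± 0.26), and the isocitrate dehydrogenase subunits Idh3g (-0.82 ± 0.30) and Idh3a (-0.54 ± 0.22). Fatty acid oxidation was lower for 12 of 15 genes (median -0.12), with Cpt1b, the muscle carnitine palmitoyltransferase, at -1.86 ± 0.49 and Acaa2 at -0.53 ± 0.21. Assembly factors were lower for 11 of 15 genes of complex I (median -0.17) and 14 of 21 of complexes II to V (median -0.10), with Uqcc1 at -0.87 ± 0.25, Cox10 at -0.72 ± 0.23 and Cox17 at -0.58 ± 0.23. Mitochondrial ribosome genes were evenly split, with 19 of 34 lower (median -0.06).

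Among regulators of mitochondrial biogenesis 8 of 14 were lower (median -0.14). Ppargc1a, the coactivator PGC-1 alpha, was at 5.10, 6.64, 6.02 and 9.16 in expanded skin, against 7.60, 8.83, 8.64 and 10.18 in non-expanded skin. It was lower on each day and highest at day 21 in both arms, with an estimate of -2.08 ± 0.32 (SE, limma unadjusted p = 0.000438, adjusted p = 0.268). Perm1, a muscle regulator that acts with it, had an estimate of -1.23 ± 0.47. Both were above background on 9 of 10 arrays. Carriers and outer membrane genes were higher for 10 of 14 (median 0.26). Slc25a5, the adenine nucleotide carrier of growing cells (0.79 ± 0.29), and the import pore Tomm40 (0.73 ± 0.25) were higher, and the channels Vdac1 (-0.79 ± 0.25) and Vdac3 (-0.69 ± 0.22) lower, at an unadjusted p under 0.05. Glycolysis was split with 8 of 16 lower (median -0.04). The muscle enzymes Eno3 (-2.75 ± 0.57), Pgam2 (-2.61 ± 0.52) and Pfkm (-1.85 ± 0.75) and the triose phosphate isomerase Tpi1 (-0.73 ± 0.23) were lower, and Aldoc (0.70 ± 0.24) higher, at that threshold.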

How the data were processed

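Whole-skin RNA was labelled by the Affymetrix WT PLUS method, per the labels' protocols. The authors deposited values of 28846 probe sets for 10 arrays, read here as log2 signal from their range (1.87 to 19.88). The log base, summarisation and normalization are not given in the sources used here. The submitters' processing notes name mm10. All 19572 probe sets with a symbol matched RefSeq by gene ID. Where a gene had several probe sets (55 genes) the highest was used, and genes with a mean under the 30th percentile (4.86) were removed, leaving 13653.

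limma 3.58.1 (R 4.3.3) was run two-sided over all of these with Benjamini-Hochberg adjustment at 0.05: expansion with the day as a block (3 residual degrees of freedom), slopes over days (4), and 3 groups over 10 arrays (7). p-values measure the spread between these arrays, which may be technical. No arm had replicate arrays of the same day, so real change is part of this spread. In the expansion fit it holds any change of the arm difference with the day. In the slope fit it holds change over days that departs from a line. In the fit of 3 groups it holds differences between days and between anagen and telogen. Such change cannot be told apart from variation between animals or arrays. The titles number the days alike in both arms, which gives the pairing; same-day deviations correlated at -0.133, -0.171, -0.104 and 0.358. Genes named are the members with the smallest p in each comparison, the extremes of each complex, all complex II and isoform pairs, and up to 4 genes a list; others singled out (among them Ndufb4, Atp5g2, Atp5g3, Atp5b, Uqcrc1, Uqcrc2, Ndufa2 and Ndufa5) were chosen after their values were seen. Members and lists were chosen with earlier results of these data known. The code was checked on simulated data. Alternatives are given at the end.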

Additional observations from a re-analysis of the deposited data

Results flagged for a closer look

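Among 86 sets of 4 arrays (an arm of a named member or of a complex mean), 5 had 1 array far from the other 3 by Dixon's ratio above the 95% critical value, and chance gives about 1 in 20 sets. All 5 lay in the expanded arm. Cox8b stood at 9.833 at day 21, against 7.103 to 7.415 on the other expanded arrays. Cox8c was at 6.354 at day 0 (others 5.702 to 5.784). Ndufv3 was at 5.96 at day 7 (others 6.31 to 6.338). Day 0 was low for Ndufs8, at 11.41 (others 11.81 to 11.88), and for Sdhd, at 9.405 (others 9.936 to 10.02). Each such array is also a day of its own, so a deviating array and a change with the day cannot be told apart.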

How the results depend on the processing

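In the expansion effect the lower member median held under every alternative run, from -0.54 to -0.26, and no member passed an adjusted p. The ribosomal protein covariate was chosen after seeing the data. Without the replicate block that pairs the days, 2 genes passed an adjusted p, none a member, and 16 members (19.5%, against 9.13% of all genes) had an unadjusted p under 0.05. Cox4i1, Ndufa7 and Ndufs1 left that group, and Atp5j, Ndufa2, Ndufb8, Ndufc1 and Ndufs3 joined it. Leaving out a day gave 0 to 1 genes past adjusted p, 4 to 27 members at the unadjusted threshold and a complex V median from -0.45 to 0.042. With the fast muscle covariate these members numbered 1 and the muscle isoform median was -0.94. Of 385 alternatives for 35 named genes, 369 kept the sign and 16 turned it, in 9 genes. With a day left out the estimates ranged from -0.54 to 0.060 (Atp5o), -0.42 to 0.25 (Cox6a1), -0.15 to 0.025 (Cox7a2l), -0.83 to 0.029 (Ndufa4), -0.14 to 0.60 (Ndufa4l2), -0.45 to 0.034 (Sdha) and -0.14 to 0.38 (Sdhd). Cox6a1 was 0.063 with the ribosomal protein covariate, and with the fast muscle covariate Cox8a was -0.081 and Cox8c 0.038.

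Slope medians with a day left out ranged from -0.16 to 0.17 in expanded skin (0 to 4 members at the unadjusted threshold), from -0.044 to 0.30 in non-expanded skin (1 to 4 members) and from -0.35 to 0.21 for their difference (0 to 2 members). For implantation, leaving out an array gave 0 to 2645 genes and 0 to 16 members past adjusted p, 4 to 30 members at the unadjusted threshold and medians from -0.15 to 0.60, the upper ends without telogen. Without non-expanded day 14 it was 112 genes. The unadjusted count was 3 with a mean-variance trend, 3 after quantile normalization and 9 with the ribosomal protein covariate (3.66%, 3.66% and 11% of members, against 15.7%, 16.3% and 17.4% of all genes). For expanded skin against no surgery the genes past adjusted p numbered 472 with the fast muscle covariate, 33 without the level filter, 109 with the ribosomal protein covariate (8 members unadjusted, 9.76%, against 18.6% of all genes) and 5 to 1850 with an array left out. Those fits gave 0 to 2 members past adjusted p, 0 to 25 unadjusted and medians from -0.47 to 0.36. The lone no-surgery array was then assumed to vary like the other groups. The anagen minus telogen median was -1.02 after quantile normalization. The causes were not tested.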
